A study of Mus musculus with 2 samples.

Results

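A group of 10 immediate early and stress-response genes, *Fos*, *Fosb*, *Jun*, *Junb*, *Jund*, *Egr1*, *Atf3*, *Ier2*, *Gadd45b* and *Gadd45g*, were described in the liver of 1 mouse. They were found by gene identifier in the deposited gene and transcript tables, with symbols from GENCODE, and all 10 were present among 69691 entries of the gene table. The mouse was a female of the C57BL/6J inbred strain, 10 weeks old, and its RNA was sequenced in 2 libraries that the labels call technical replicates, named library 2 and library 1 here. Both libraries share the animal, the tissue, a QIAGEN kit for lipid-rich tissue and selection for polyA tails. The labels name no treatment, no genetic change and no second animal, and they date library 2 only. A difference between the libraries therefore cannot be told apart from a difference in date or handling, and no value describes variation between animals.

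Immediate early genes are transcribed within minutes of a stimulus without new protein synthesis, through kinase cascades that act on factors already bound at their promoters. Many of their messenger RNAs are short-lived, because AU-rich elements in the 3' untranslated region (3' UTR) recruit decay factors. Jun and Fos proteins pair as the transcription factor AP-1, which takes part in liver regeneration and in responses to injury, and Gadd45 proteins bind stress kinases and cell cycle regulators.

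The deposited expected counts, which are estimated fragments per gene, summed to 19525500 in library 2 and 23309905 in library 1. The libraries stood apart across the whole gene table. Counts were scaled with TMM factors of 1.22 for library 2 and 0.818 for library 1, and a two-sided exact binomial test compared the reads of each gene, with Benjamini-Hochberg adjustment over the 12728 genes whose counts summed to 20 or more. Calls needed both an adjusted p below 0.05 and a size of at least 1 in the log2 fold, taken as library 2 over library 1. That call was made for 56.3% of all tested genes, with 32.6% higher and 23.6% lower in library 2. The test sets the reads of one library against those of the other, has no replicate check, and its intervals cover counting error only. Hepatocyte markers fitted the labelled tissue, with 8 of 8 at a TPM of at least 1 in both libraries and a summed 70075 TPM in library 2 against 28163 TPM in library 1.

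The 10 genes together held 226 TPM, a length-normalised relative abundance, in library 2 and 24.2 TPM in library 1 (mean 125 ± 143, SD over the 2 technical libraries). Their summed expected count was 5798 in library 2 and 1383 in library 1. At least 1 TPM was reached by 9 of the 10 genes in library 2 and by 5 in library 1. At least 10 TPM was reached by 7 genes in library 2 and by 0 in library 1. *Gadd45g* alone gave 38.6% of the summed TPM in library 2 and 2.81% in library 1. *Egr1* gave 12.4% in library 2 and 39.0% in library 1, so the leading gene of the group differed between the libraries.

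**Figure D1:**
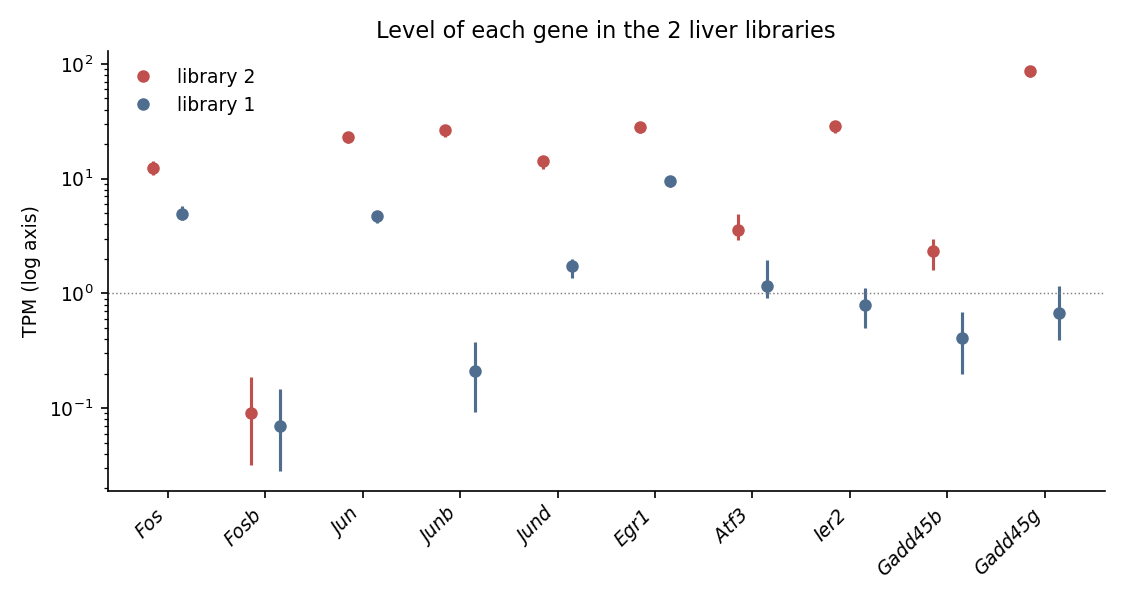
TPM of each of the 10 genes on a log axis, with library 2 in red and library 1 in blue. Points are deposited TPM values, vertical lines are the deposited credibility intervals, and the dotted line marks 1 TPM. *Gadd45g* is the highest gene in library 2 at 87.2 TPM and *Egr1* the highest in library 1 at 9.45 TPM.

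Of the 10 genes, 9 had enough counts for the test. *Gadd45g*, *Junb*, *Ier2*, *Jund*, *Gadd45b* and *Jun* were higher in library 2, none was lower, and *Fos*, *Egr1* and *Atf3* were not called. Subtracting a curve of fold on transcript GC content turned the sign of *Jun*, *Gadd45b*, *Fos* and *Egr1*, and other GC measures tried after seeing the data also turned *Jund* and *Atf3*, while *Gadd45g* and *Junb* were called higher throughout. The 6 of 9 stand beside the background of 32.6% of all genes called higher. The median log2 fold of the 9 genes was 1.60, against 0.04 over all tested genes. Dividing by total count moved the median of all genes to 0.62 and that of the 9 genes to 2.16, and the ratio of TPM moved them to 0.84 and 2.26. Calls on the higher side were 58.0% of all calls with TMM, 84.9% with total counts and 95.1% with the TPM ratio. All 9 genes kept a positive fold under these scalings, and 8 were called higher with total counts and 9 with the TPM ratio. The background was 41.8% of all tested genes higher and 7.46% lower with total counts, and 46.0% higher and 2.39% lower with the TPM ratio.

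*Jun*, *Junb* and *Jund* encode the Jun partners of AP-1. *Jun* (ENSMUSG00000052684.4, mm10 chr4:95049034-95052222, minus strand), the archetypal member, had 23.1 TPM from 1068 counts in library 2 and 4.77 TPM from 327 counts in library 1 (mean 13.9 ± 12.9, SD, n = 2). Its log2 fold was 1.38, with an interval of 1.20 to 1.57 and an adjusted p of 5.51e-59 in the exact binomial test. *Jun* was thus higher in library 2 by 2.61-fold. An antisense gene, *Junos*, overlaps it and held 6 counts in library 2 and 1 in library 1. Whether counting used strand is not given in the sources used here, so reads of the overlap cannot be assigned with certainty.

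*Junb* (ENSMUSG00000052837.5, mm10 chr8:84974484-84978718, minus strand), which can restrain growth driven by Jun in some settings, had 26.5 TPM from 676 counts in library 2. Library 1 held 0.21 TPM from 8 counts (mean 13.4 ± 18.6, SD, n = 2). The log2 fold was 6.00, with an interval of 5.09 to 7.30 and an adjusted p of 1.12e-156 in the exact binomial test. This is a 64.1-fold difference in TMM-scaled counts. By TPM, *Junb* held rank 2741 of 21461 nuclear protein-coding genes in library 2 and rank 11087 in library 1.

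*Jund* (ENSMUSG00000071076.5, mm10 chr8:70698949-70700616, plus strand), often the most steadily expressed Jun gene, had 14.1 TPM from 586 counts in library 2 and 1.73 TPM from 106 counts in library 1 (mean 7.93 ± 8.76, SD, n = 2). The log2 fold of *Jund* was 2.14, with an interval of 1.84 to 2.46 and an adjusted p of 3.09e-59 in the exact binomial test. The deposited transcript model of *Jund* is 2878 bases long and that of the later annotation used for coordinates 1668 bases, so its TPM rests on the longer model. The antisense gene *Gm11175*, which overlaps it, had 0 counts in both libraries. Of the TPM of the 3 Jun genes, *Junb* made up 41.6% in library 2 and 3.13% in library 1. *Jun* made up 36.2% in library 2 and 71.1% in library 1, and *Jund* 22.2% in library 2 and 25.8% in library 1. The order of the Jun genes by TPM was therefore not the same in the 2 libraries.

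*Fos* (ENSMUSG00000021250.9, mm10 chr12:85473890-85477273, plus strand), the partner of Jun in the classical AP-1 dimer, had 12.4 TPM from 322 counts in library 2 and 4.92 TPM from 216 counts in library 1 (mean 8.68 ± 5.31, SD, n = 2). Its log2 fold of 0.25 had an interval of 5.3e-05 to 0.51 and an adjusted p of 0.0594 in the exact binomial test. *Fos* was not called. *Fosb* (ENSMUSG00000003545.2, mm10 chr7:19302696-19310051, minus strand), a close relative of *Fos*, had 0.09 TPM from 5 counts in library 2 and 0.07 TPM from 6 counts in library 1. It was the lowest of the 10 genes in both libraries, and too few counts were present to test it. The ratio of summed Jun-family TPM to summed *Fos* and *Fosb* TPM was 5.09 in library 2 and 1.34 in library 1.

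*Egr1* (ENSMUSG00000038418.7, mm10 chr18:34859823-34864984, plus strand), a zinc-finger factor induced by growth factor and stress signalling, had 28.1 TPM from 1269 counts in library 2 and 9.45 TPM from 627 counts in library 1 (mean 18.8 ± 13.2, SD, n = 2). Its log2 fold was 0.69, with an interval of 0.56 to 0.83 and an adjusted p of 2.02e-23 in the exact binomial test. The adjusted p passed its threshold but the fold did not reach 1, so *Egr1* was not called. Among nuclear protein-coding genes *Egr1* was at rank 2629 in library 2 and 3462 in library 1. With total-count scaling its log2 fold was 1.27 and it was called higher.

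*Atf3* (ENSMUSG00000026628.9, mm10 chr1:191170296-191218039, minus strand), a stress-induced factor that often represses its targets, had 3.56 TPM from 97 counts in library 2 and 1.17 TPM from 46 counts in library 1 (mean 2.37 ± 1.69, SD, n = 2). Its log2 fold was 0.75, with an interval of 0.23 to 1.29 and an adjusted p of 0.0048 in the exact binomial test. *Atf3* was not called, since its fold did not reach 1, and its rank was 8213 in library 2 and 8278 in library 1. With total-count scaling its log2 fold was 1.32 and it was called higher.

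*Ier2* (ENSMUSG00000053560.4, mm10 chr8:84661331-84662852, minus strand), an early gene for a nuclear protein, had 28.7 TPM from 590 counts in library 2 and 0.79 TPM from 24 counts in library 1 (mean 14.7 ± 19.7, SD, n = 2). The log2 fold of *Ier2* was 4.27, with an interval of 3.71 to 4.95 and an adjusted p of 1.32e-115 in the exact binomial test. That is a 19.3-fold difference in TMM-scaled counts. By TPM, *Ier2* held rank 2581 in library 2, against rank 9031 in library 1.

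*Gadd45g* and *Gadd45b* encode small acidic proteins that activate the kinase MAP3K4. *Gadd45g* (ENSMUSG00000021453.2, mm10 chr13:51846678-51848468, plus strand) had 87.2 TPM from 1146 counts in library 2 and 0.68 TPM from 13 counts in library 1 (mean 43.9 ± 61.2, SD, n = 2). Its log2 fold was 6.09, with an interval of 5.36 to 7.05 and an adjusted p of 3.47e-266 in the exact binomial test. At 68.2-fold it differed most of the 9 tested genes, although its interval overlapped that of *Junb*. It ranked 1066 in library 2 and 9279 in library 1.

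*Gadd45b* (ENSMUSG00000015312.8, mm10 chr10:80930073-80932204, plus strand), which limits stress-induced cell death in regenerating mouse liver, had 2.34 TPM from 39 counts in library 2 and 0.41 TPM from 10 counts in library 1 (mean 1.38 ± 1.36, SD, n = 2). Its log2 fold was 1.60, with a wide interval of 0.61 to 2.81 and an adjusted p of 0.00106 in the exact binomial test. It was called higher in library 2. The third gene of the family, *Gadd45a*, a p53 target added after its values were seen, had 8.45 TPM from 127 counts in library 2 and 4.40 TPM from 103 counts in library 1. The fold of *Gadd45a* on the log2 scale was -0.02, with an interval of -0.41 to 0.37, and it was not called. With the GC curve over annotated transcripts it was called lower at -3.51, and with a curve on its longest coding transcript, added after the data were seen, it was not called at -0.066. The 3 family members thus differed in their TMM-scaled fold between the libraries, with no overlap between the interval of *Gadd45g* and those of the other genes.

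Within library 2, *Ier2* (credibility interval 24.9 to 29.2 TPM), *Egr1* (25.0 to 28.0 TPM) and *Junb* (23.2 to 26.9 TPM) followed *Gadd45g* and did not separate beyond these intervals. *Jund* (12.2 to 14.4 TPM) and *Fos* (10.8 to 14.1 TPM) did not separate from each other either. In library 1, *Egr1* (8.38 to 9.81 TPM) stood above *Fos* (4.35 to 5.76 TPM) and *Jun* (4.10 to 5.10 TPM), which overlapped. *Jund*, *Atf3*, *Ier2*, *Gadd45g*, *Gadd45b*, *Junb* and *Fosb* followed, and in that order each overlapped its next neighbour.

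The transcript tables showed which RNAs lay behind these values. *Fosb*, *Jun*, *Junb*, *Jund*, *Ier2* and *Gadd45b* had 1 annotated transcript each, so their isoform share (the percent of a gene's TPM) was 100 in both libraries. For *Fos*, the full-length coding transcript of 2108 bases held 81.7% of TPM in library 2 and 100% in library 1. A 795-base processed transcript, a non-coding form, held the other 18.4% in library 2 from 21.4 counts, and 0% in library 1 from 0 counts. In bulk tissue, fewer cells of a type and less RNA per cell cannot be told apart for any of these values.

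*Gadd45g* had a coding transcript of 1071 bases with 84.7% of TPM in library 2 and 78.7% in library 1. Its form with a retained intron had 13.3 TPM from 139 counts in library 2 and 0.14 TPM from 2.23 counts in library 1. Both forms were thus far higher in library 2, while their shares differed little beside the few counts of library 1. *Egr1* was carried by a 3036-base coding transcript, with 94.4% in library 2 and 96.0% in library 1, and by a 4484-base coding transcript with 5.62% in library 2 and 4.03% in library 1. For *Atf3*, a 1984-base coding transcript had 61.0% in library 2 and 0% in library 1, and a 1906-base coding transcript had 39.0% in library 2 and 100% in library 1. The credibility intervals of the 1984-base form, 0.575 to 3.27 TPM in library 2 and 4.5e-06 to 0.953 TPM in library 1, overlapped, so the switch between these *Atf3* forms does not exceed the estimation error. The gene counts themselves carried a deposited posterior SD of 0 for all 10 genes in both libraries, as for 86.7% of tested genes in library 2 and 88.1% in library 1, so the deposited estimates record no uncertainty from reads shared with other genes.

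The 10 genes had a median annotated length of 1897 bases, against 2981 bases over tested protein-coding genes, although *Egr1* (4484 bases), *Fosb* (3782 bases) and *Jun* (3189 bases) were longer than that. The *Egr1* length is that of its minor transcript, which held 5.62% of TPM in library 2 and 4.03% in library 1. *Jun*, *Junb*, *Jund* and *Ier2* have a single exon, 4 of 10, against 1.97% of 11980 tested protein-coding genes. Over annotated transcripts the GC content was 62.6% for *Junb*, 60.9% for *Ier2*, 60.6% for *Gadd45g*, 56.9% for *Gadd45b* and 56.0% for *Fosb*. It was 55.5% for *Jun*, 55.5% for *Egr1*, 55.1% for *Fos* and 51.1% for *Atf3*, against a median of 50.3% over 12128 tested genes and a 90th percentile of 57.8%. The 3 genes above that percentile, *Junb*, *Ier2* and *Gadd45g*, were also the 3 with the largest log2 folds of the genes with a value. *Jund* had none by this measure, because its deposited and annotated lengths differ. Its shorter annotated transcript has 67.1% GC, above all the other genes, beside a log2 fold of 2.14.

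The 60-base stretch with the highest GC content in each coding sequence is shown for 6 genes to make the range visible, read from GENCODE M21 transcripts on the coding strand, with G and C in capitals. The stretches lie at mm10 chr8:84977927-84977986 (*Junb*, minus strand, 81.7% GC), chr8:84662131-84662190 (*Ier2*, minus strand, 85.0%), chr13:51847685-51847744 (*Gadd45g*, plus strand, 78.3%), chr8:70699133-70699192 (*Jund*, plus strand, 88.3%), chr12:85474059-85474118 (*Fos*, plus strand, 73.3%) and chr1:191171528-191171587 (*Atf3*, minus strand, 66.7%).
Junb: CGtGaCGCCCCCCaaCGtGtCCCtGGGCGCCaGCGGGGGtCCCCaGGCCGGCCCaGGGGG
Ier2: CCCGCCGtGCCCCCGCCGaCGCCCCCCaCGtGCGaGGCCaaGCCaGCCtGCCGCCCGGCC
Gadd45g: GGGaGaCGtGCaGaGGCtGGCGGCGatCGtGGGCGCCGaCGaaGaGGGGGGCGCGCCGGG
Jund: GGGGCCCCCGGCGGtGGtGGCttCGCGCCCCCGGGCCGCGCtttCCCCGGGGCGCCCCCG
Fos: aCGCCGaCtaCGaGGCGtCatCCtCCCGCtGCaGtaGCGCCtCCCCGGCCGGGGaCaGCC
Atf3: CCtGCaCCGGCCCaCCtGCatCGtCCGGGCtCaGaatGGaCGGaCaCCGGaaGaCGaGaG
The stretches of *Ier2* and *Jund* contain runs of C and G with few interruptions, while that of *Atf3* is broken by A and T throughout.

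Across all genes, the fold between the libraries moved with base composition. Over 11623 nuclear genes, Spearman's rho between log2 fold and GC content of the longest coding transcript was 0.89. This rho is given as a description across genes of the same 2 libraries. The longest coding transcript means, throughout, the coding transcript with the longest coding sequence. As an alternative, a smooth curve of log2 fold on GC content over annotated transcripts was subtracted from every gene with such a value. The curve stood at 4.30 for *Junb*, 3.83 for *Ier2*, 3.73 for *Gadd45g*, 2.51 for *Gadd45b*, 2.00 for *Jun*, 1.97 for *Egr1*, 1.84 for *Fos* and 0.36 for *Atf3*. After subtraction 9.64% of 12128 genes were called higher and 10.3% lower in library 2.

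**Figure D2:**
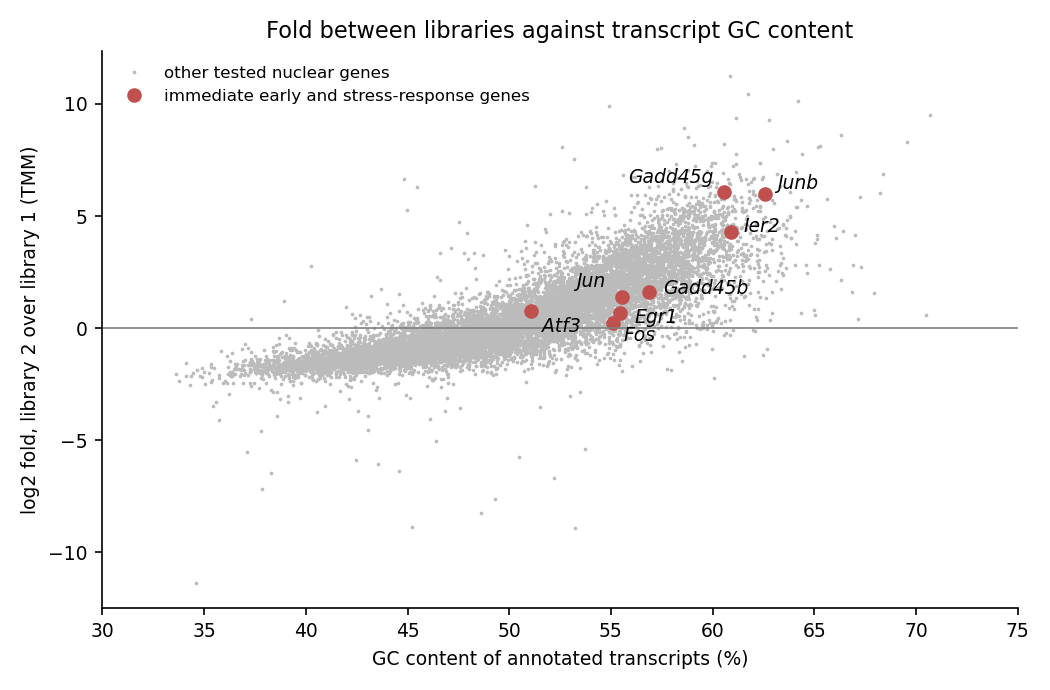
Log2 fold of library 2 over library 1 with TMM scaling (vertical axis) against GC content of the annotated transcripts in percent (horizontal axis). Each grey point is a tested nuclear gene and the red points are the 8 genes described that have a GC value. *Junb*, *Gadd45g* and *Ier2* lie between 60.6% and 62.6% GC with log2 folds of 4.27 to 6.09, within the rising cloud of other genes, and *Fos* lies at 0.25.

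With that curve subtracted, *Gadd45g* kept a log2 fold of 2.36 (adjusted p 7.66e-15) and *Junb* one of 1.70 (adjusted p 0.000102), and both were called higher in library 2 by the exact binomial test. *Fos* had a log2 fold of -1.59 and *Egr1* one of -1.28, and both were called lower, the direction opposite to the uncorrected fold. *Ier2* at 0.44, *Atf3* at 0.39, *Jun* at -0.62 and *Gadd45b* at -0.91 were not called. The median over the 8 genes was -0.11, against -0.01 over all genes with a GC value. Of the 6 genes called higher without the curve, *Gadd45g* and *Junb* were thus called higher with it, and *Jund* had no value. The GC value of *Fos* is a mean that includes its processed transcripts. Its 2108-base coding transcript, with 93.4% of *Fos* counts in library 2 and 100% in library 1, has 51.9% GC. With a curve on the longest coding transcript, added after seeing the data, *Fos* was not called, at -0.40.

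**Figure D3:**
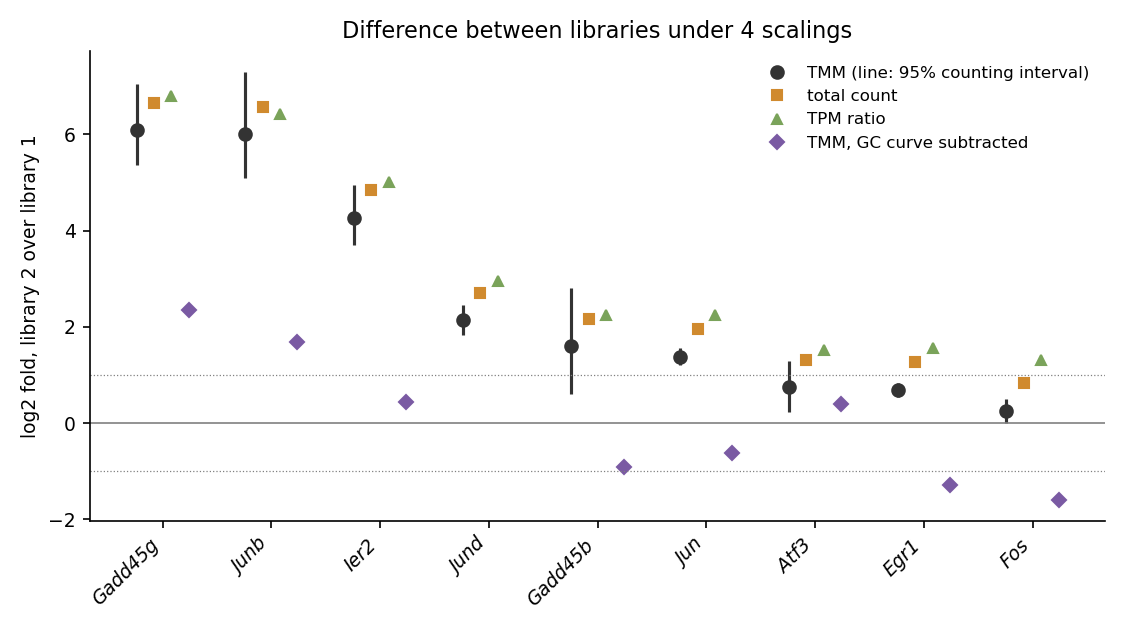
Log2 fold of library 2 over library 1 for the 9 tested genes under 4 scalings. Black points are TMM values with lines for their 95% counting intervals, orange squares total-count scaling, green triangles the TPM ratio and purple diamonds TMM after subtraction of the GC curve, with dotted lines at 1 and -1. All points but the purple ones lie above 0, and the purple ones run between -1.59 for *Fos* and 2.36 for *Gadd45g*, with none for *Jund*.

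The coding sequence and the 3' UTR differed in composition within genes. Coding GC content ranged between 50.7% (*Atf3*) and 70.6% (*Jund*). In the 3' UTR it was 40.4% for *Fos*, 42.3% for *Egr1*, 43.9% for *Jun*, 49.7% for *Atf3*, 53.3% for *Fosb* and 53.4% for *Junb*. It was 57.0% for *Gadd45b*, 57.6% for *Jund*, 58.5% for *Ier2* and 60.9% for *Gadd45g*, against a median of 44.2% over tested protein-coding genes. The *Egr1* value belongs to its 4484-base transcript, the minor form by TPM. Across the same 11623 genes rho with the log2 fold was 0.76 for coding GC content and 0.78 for that of the 3' UTR. The Gadd45 family shows the range within closely related genes. Coding GC content was 59.0% for *Gadd45g*, 58.8% for *Gadd45b* and 59.0% for *Gadd45a*, while the 3' UTR of *Gadd45a* had 34.6% GC. Their log2 folds of 6.09, 1.60 and -0.02 followed the order of the 3' UTR values, while the coding values lay close together. GC content of the longest coding transcript gave the same order, at 59.9% for *Gadd45g*, 56.9% for *Gadd45b* and 49.8% for *Gadd45a*. The mean over annotated transcripts did not, at 60.6% for *Gadd45g*, 59.7% for *Gadd45a* and 56.9% for *Gadd45b*. The part of composition in these 3 folds was not tested, and the relation was noticed after the values were seen.

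**Figure D4:**
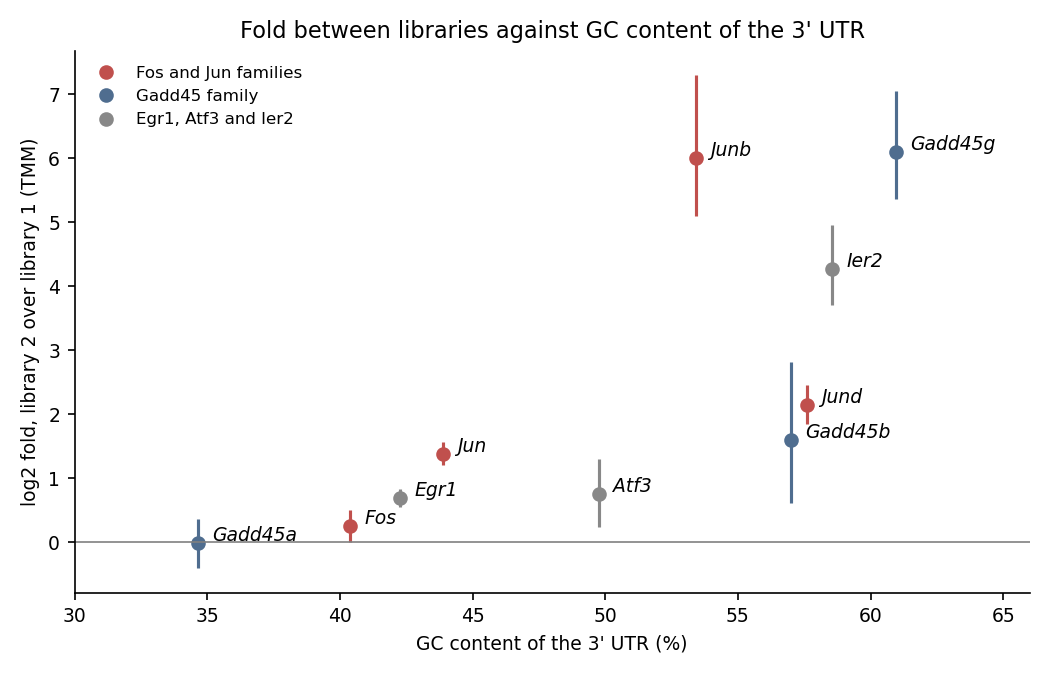
Log2 fold of library 2 over library 1 with TMM scaling (vertical axis) against GC content of the 3' UTR of the longest coding transcript in percent (horizontal axis), for the 9 tested genes and *Gadd45a*. Lines are 95% counting intervals and colours mark the Fos and Jun families, the Gadd45 family and the other genes. *Gadd45a* lies at 34.6% GC and a log2 fold of -0.02, and *Gadd45g* at 60.9% and 6.09, and *Junb*, at 53.4% and 6.00, lies above *Gadd45b*, *Jund* and *Ier2*, whose 3' UTRs hold more G and C.

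AU-rich elements were looked for as the pentamer ATTTA and the nonamer TTATTTATT in the 3' UTR, on the transcribed strand, where a nonamer also holds a pentamer. *Fos* had 4 pentamers, *Jun* 4, *Atf3* 3, *Junb* 2, *Egr1* 2, *Jund* 1 and *Fosb* 1, and *Ier2*, *Gadd45b* and *Gadd45g* had 0. For *Egr1* the 4484-base transcript was searched, which is its minor form by TPM. In the last 300 bases of the 3' UTR, 6 of the 10 genes held a pentamer, against 44.7% of 9528 tested genes with a 3' UTR of that length. The nonamer was found there in 1 gene, *Fos*, against 2.15% of genes. A 30-base site around the nonamer of *Fos* and around the pentamer nearest the transcript end of 3 other genes is shown, because this element is the best known feature of such messages. The sites lie at mm10 chr12:85477103-85477132 (*Fos*, plus strand), chr4:95049078-95049107 (*Jun*, minus strand), chr8:84976923-84976952 (*Junb*, minus strand) and chr1:191170337-191170366 (*Atf3*, minus strand). Letters are from GENCODE M21, with the element in capitals.
Fos: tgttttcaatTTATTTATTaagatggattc
Jun: ttgcttgtgcatATTTAtaatagcgttcgt
Junb: tttattgaatctATTTAagtaaaaaaaaaa
Atf3: aaaatattacttATTTAtcccagtattcct
The 3 genes with no pentamer, *Ier2*, *Gadd45b* and *Gadd45g*, were all called higher in library 2, as were *Jun*, *Junb* and *Jund*, which hold the element.

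Promoters were read from RefSeq on GRCm38.p6, with 300 bases around the start for 8 of the 10 genes among 27025 promoters. Only the first entry of each gene was used, so other starts were not searched. For *Atf3* the 120 bases before that start lie at chr1:191183334-191183453, inside the gene span given above. For *Jund* they lie at chr8:70697619-70697738, before the span given above. The promoters of *Egr1* and *Ier2* were not analysed here. Motifs were searched on both strands. TGACG, the half-site of the cAMP response element, which the full element also contains, was found in 4 of the 8 (*Atf3*, *Fos*, *Fosb* and *Junb*) and in 21.02% of all promoters. TATAAA was found in 4 (*Fos*, *Gadd45b*, *Gadd45g* and *Junb*) and in 14.2% of all. CCAAT was found in 5 and in 37.9% of all. TGACATCA, a site that Jun and ATF proteins bind, was found in *Jun* and in 3.76% of all, and the EGR site GCGGGGGCG in *Fosb* and in 2.92%. The full cAMP response element TGACGTCA, the AP-1 site TGANTCA and the CArG box of the serum response element were found in 0 of these 8 windows. Sites outside the 300 bases were not searched, so these genes may hold such elements farther from the start. A match describes letters and is no sign of binding.

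Stretches of 120 bases before the start are shown for 4 genes that span the range of folds, with TGACG on either strand, TGACATCA and TATAAA in capitals. They lie at GRCm38.p6 chr12:85473770-85473889 (*Fos*, plus strand), chr4:95052223-95052342 (*Jun*, minus strand), chr8:84978749-84978868 (*Junb*, minus strand) and chr13:51846555-51846674 (*Gadd45g*, plus strand).
Fos: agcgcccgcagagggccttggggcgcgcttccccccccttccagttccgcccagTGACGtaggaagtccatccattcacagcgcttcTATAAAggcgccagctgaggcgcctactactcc
Jun: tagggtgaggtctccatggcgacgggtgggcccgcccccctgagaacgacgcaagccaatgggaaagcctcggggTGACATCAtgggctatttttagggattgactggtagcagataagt
Junb: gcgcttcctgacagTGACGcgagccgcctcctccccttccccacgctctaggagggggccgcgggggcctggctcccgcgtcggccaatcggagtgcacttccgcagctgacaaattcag
Gadd45g: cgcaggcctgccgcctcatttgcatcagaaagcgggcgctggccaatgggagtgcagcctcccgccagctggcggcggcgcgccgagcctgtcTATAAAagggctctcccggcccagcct
*Fos* holds TGACG and TATAAA within the stretch, whereas *Gadd45g* holds TATAAA without TGACG.

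Other immediate early genes were listed by name, 30 in all, of which 22 had enough counts. In library 2, 8 were higher, 3 were lower and 11 were not called, with a median log2 fold of 0.74 against 0.04 over all genes. Over all tested genes, 32.6% were higher and 23.6% lower with TMM, and 41.8% and 7.46% with total counts. These shares were 46.0% and 2.39% with the TPM ratio, and 9.64% and 10.3% with the GC curve subtracted. They are the background for the counts of this list and of those that follow. *Zfp36*, a protein that binds AU-rich elements, had the highest mean of the list, at 132 TPM in library 2 and 48.0 TPM in library 1, and was not called (log2 fold 0.57). *Dusp1*, a MAP kinase phosphatase, had 74.1 TPM in library 2 and 26.2 TPM in library 1 and was not called (log2 fold 0.63). *Per1*, a clock gene, was higher at 2.00 TPM in library 2 against 0.06 TPM in library 1 (log2 fold 4.25). *Socs3*, a feedback inhibitor of cytokine signalling, was higher at 19.1 TPM in library 2 against 1.81 TPM in library 1 (log2 fold 2.47). *Mcl1*, an inhibitor of cell death, was lower, with 31.1 TPM in library 2 and 42.4 TPM in library 1 (log2 fold -1.33). *Egr4* and *Npas4*, known mostly from neurons, had 0 counts in both libraries. With total-count scaling 13 were higher and 0 lower, and with the TPM ratio 14 and 0. After subtraction of the GC curve, 1 of 21 was higher and 8 were lower, so the list's direction depended on it. *Csrnp1*, with a log2 fold of 3.895 before, was the gene then called higher, at 1.24. *Socs3* at -2.42 and *Mcl1* at -3.10 were then called lower, and *Per1* at 1.04 was not called.

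Among 13 tested AP-1 and ATF relatives, 5 were higher, 3 were lower and 5 were not called in library 2 (median log2 fold 0.16). *Atf5*, a stress-regulated ATF factor abundant in liver, was higher at 190 TPM in library 2 against 18.4 TPM in library 1 (log2 fold 2.54). *Atf4*, the main effector of the integrated stress response, had 79.0 TPM in library 2 and 28.6 TPM in library 1 and was not called (log2 fold 0.58). *Atf2*, which dimerises with Jun, was lower at 9.50 TPM in library 2 against 17.3 TPM in library 1 (log2 fold -1.53). *Fosl1*, a Fos relative, had 0 counts in both libraries. With total-count scaling 6 were higher and 0 lower, and with the GC curve subtracted, 0 of 12 were higher and 5 were lower. *Atf5* was among these 5, at a log2 fold of -1.06, whereas *Atf4* at -0.86 and *Atf2* at -0.09 were not called.

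Factors that act upstream of these genes split evenly in library 2, with 4 of 14 higher, 4 lower and 6 not called (median log2 fold -0.42). *Srf*, the serum response factor, was higher at 3.34 TPM in library 2 against 0.25 TPM in library 1 (log2 fold 2.84). *Creb1*, which binds the cAMP response element, was lower at 3.23 TPM in library 2 against 5.05 TPM in library 1 (log2 fold -1.56). With total-count scaling the same list had 4 higher and 0 lower and a median of 0.15, so its sign turned, and with the GC curve subtracted 0 of 13 were higher and 1 was lower. Of 18 MAP kinases and their kinases, 8 were higher, 3 were lower and 7 were not called. *Map2k2*, which phosphorylates ERK kinases, was higher at 65.7 TPM in library 2 against 1.30 TPM in library 1 (log2 fold 5.36), whereas *Mapk8*, the Jun kinase JNK1, was lower at 9.22 TPM in library 2 against 14.3 TPM in library 1 (log2 fold -1.49). With total-count scaling 8 of these kinases were higher and 1 was lower, and with the GC curve subtracted 2 were higher and 0 lower (median -0.12). Of 7 MAP kinase phosphatases tested, 1 was higher and 0 were lower, and with total-count scaling 4 were higher and 0 lower. With the GC curve 0 phosphatases were higher and 2 were lower.

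The Gadd45 family with its partners and p53 targets had 7 of 13 higher, 1 lower and 5 not called in library 2 (median log2 fold 1.07). *Bax*, which promotes cell death, was higher at 16.6 TPM in library 2 against 0.13 TPM in library 1 (log2 fold 5.84). *Ccng1*, a p53 target, was lower at 14.8 TPM in library 2 against 22.0 TPM in library 1 (log2 fold -1.47). In the integrated stress response, 7 of 14 were higher, 1 was lower and 6 were not called (median log2 fold 1.20). *Trib3*, an ATF4 target, was higher at 5.79 TPM in library 2 against 0.24 TPM in library 1 (log2 fold 3.50). *Eif2ak2*, the kinase PKR, was lower at 7.14 TPM in library 2 against 7.83 TPM in library 1 (log2 fold -1.21). With total-count scaling 7 genes of the Gadd45 list and 8 of the stress response list were higher and 0 were lower in either. With the GC curve subtracted, 2 were higher and 1 lower in the Gadd45 list (median -0.13), and 1 was higher and 2 lower in the stress response list (median -0.34), so the sign of both medians turned.

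Of the proteins that bind AU-rich elements or degrade messages, 2 of 15 were higher, 8 lower and 5 not called in library 2 (median log2 fold -1.04). With total-count scaling 4 were higher and 1 lower (median -0.46), and with the TPM ratio 4 were higher and 0 lower (median -0.15). *Zfp36l1*, which promotes decay of AU-rich messages, was lower at 104 TPM in library 2 against 140 TPM in library 1 (log2 fold -1.33). *Cnot7*, a deadenylase, was lower at 21.4 TPM in library 2 against 32.3 TPM in library 1 (log2 fold -1.61). *Khsrp*, another decay factor, was higher at 9.87 TPM in library 2 against 1.84 TPM in library 1 (log2 fold 1.53). The median GC content of this list was 45.7%, against 55.3% for the other immediate early genes. After subtraction of the GC curve 0 of 14 were higher and 3 were lower. *Khsrp* at -1.16 and *Zfp36l1* at -2.44 were among these 3, and *Cnot7* at -0.22 was not called.

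**Figure D5:**
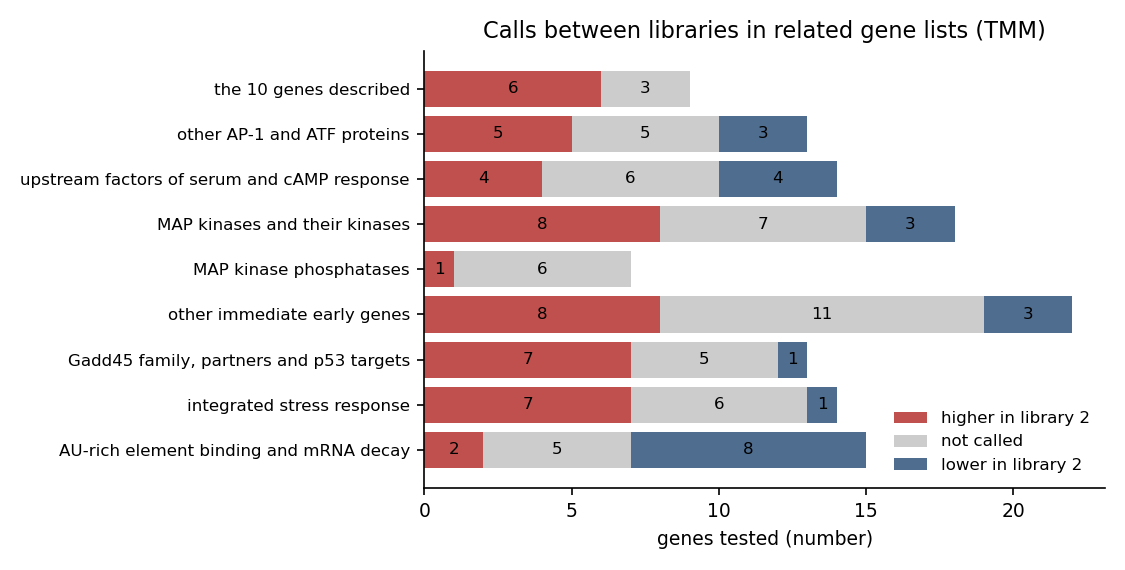
Number of tested genes in each list that were called higher in library 2 (red), not called (grey) or called lower in library 2 (blue) with TMM scaling, with the number written in each bar. With total-count scaling 2 genes of these lists, 1 MAP kinase or kinase of such a kinase and 1 decay factor, stay lower. The top bar holds the 9 tested genes described, of which 6 were higher, and the bottom bar the AU-rich element binding and decay factors, of which 8 of 15 were lower.

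Markers of other liver cells were examined because immediate early genes are expressed in many cell types. Markers of Kupffer cells, the resident macrophages, were called higher for 5 of 8 and lower for 1 of 8 in library 2, against 32.6% of all genes called higher and 23.6% lower, with a summed 177 TPM in library 2 against 70.7 TPM in library 1. Endothelial markers were called higher for 2 of 8 and lower for 0, with 119 TPM in library 2 against 38.2 TPM in library 1. Stellate cell markers were called higher for 3 of 8 and lower for 1, with 162 TPM in library 2 against 172 TPM in library 1. Bile duct markers were called higher for 2 of 5 tested and lower for 0, with 64.3 TPM in library 2 against 48.0 TPM in library 1. Neutrophil and lymphocyte markers were called higher for 1 of 3 tested and lower for 2, with 9.31 TPM in library 2 against 7.55 TPM in library 1, and *Ly6g*, a neutrophil marker, had 0 counts in both. Hepatocyte markers were called higher for 2 of 8 and lower for 0. With total-count scaling 0 markers of these 6 lists were called lower. With the GC curve subtracted, 0 Kupffer cell, bile duct or neutrophil and lymphocyte markers were called in either direction, 1 endothelial and 1 stellate cell marker were higher, and 1 hepatocyte marker was higher and 1 lower. The part of these cell types in the folds of the 10 genes was not tested.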

How the data were processed

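PolyA RNA of 1 mouse liver was measured in 2 libraries. Per the file headers and descriptions, the authors' gene and transcript tables rest on mm10 with annotation M4. Aligner, quantification tool and use of strand were not given in the sources used here. Expected counts, as deposited, are estimated fragments without normalisation. Length normalisation had been applied to the deposited TPM. Isoform shares, as deposited, give the percent of a gene's TPM in each transcript. The authors' deposited credibility bounds and transcript lengths were read as signal values; the bounds centre on a posterior mean, so a TPM can lie at or beyond their edge.

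The 10 genes and all lists were chosen with earlier results of these data known. After rounding of the expected counts, the genes whose counts summed to 20 or more were scaled with TMM (edgeR 4.0.16, R 4.3.3). One library on each side leaves no residual degrees of freedom for the quasi-likelihood test, so a two-sided exact binomial test was used (scipy 1.17.1), and p-values were adjusted by Benjamini-Hochberg across the tested genes. Folds are log2 of library 2 over library 1, computed after a prior count of 0.5 was added, and intervals are exact binomial intervals at 95%. Reads without molecular identifiers are not independent molecules. Symbols, coordinates and sequences came from GENCODE M21 on the same assembly. GC content is the mean over annotated transcripts whose length lay within 10% of the deposited one, and the curve is a lowess fit with span 0.3 on nuclear genes. Of each list, genes could be named if among the 4 with the highest mean TPM, among the 3 called with the largest fold in each direction, or at 0 counts in both libraries. *Gadd45a*, *Junos* and *Gm11175* lie outside this rule and were named after their values were seen.

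Alternatives were total-count scaling, DESeq2 1.42.0 size factors, the TPM ratio with a pseudocount of 0.1, summed counts of at least 1 or 200, a prior count of 2, the GC curve, posterior mean TPM, detection at 0.5 or 5 TPM, isoform shares from counts, and each library alone. Curves on the GC content of the 3' UTR (at least 50 bases) and of the longest coding transcript were added after seeing the data.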

Additional observations from a re-analysis of the deposited data

How the results depend on the processing

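No paired analysis was possible because the series holds a single group of 2 libraries. Calls for all 9 tested genes were the same under DESeq2 size factors and a prior count of 2, and for the genes still tested with no count filter or a summed count of at least 200. *Gadd45g* and *Junb* were called higher in library 2 under every alternative run. Among the folds of the 9 genes, the GC curves were the only alternatives that changed a direction. With the transcript curve 2 of 8 genes were called higher and 2 lower. Among all genes 2422 of 12128 were called (1169 higher, 1253 lower), against 7163 of 12728 (4153 higher, 3010 lower) without it. There the log2 fold was -1.59 for *Fos*, -1.28 for *Egr1*, -0.62 for *Jun* and -0.91 for *Gadd45b*. With the curve on the longest coding transcript 2 of 9 genes were higher and 2 lower, and 2043 of 11980 genes were called (1059 higher, 984 lower). There it was -0.40 for *Fos*, -1.99 for *Egr1*, -0.62 for *Jun*, -0.92 for *Gadd45b*, -0.014 for *Atf3* and -3.58 for *Jund*, so *Fos* was not called lower with this curve. With the 3' UTR curve 4 of 9 genes were higher and 2 lower, and 2866 of 11623 genes were called (1924 higher, 942 lower). There it was -1.26 for *Jund*, -1.67 for *Gadd45b* and -0.56 for *Atf3*, while *Egr1* was called higher at 1.12 and *Fos* stayed positive at 0.97. Values of *Jund* under these curves use the shorter annotated transcript, not the deposited one. Under the 3' UTR and longest-transcript curves, those of *Egr1* use its 4484-base transcript, with 5.62% of TPM in library 2 and 4.03% in library 1. *Ier2* was not called under any of the 3 curves. Calls lower in library 2 among all genes numbered 949 with total counts and 304 with the TPM ratio, and those higher numbered 2651 with a summed count of at least 200, where fewer genes are tested. The causes were not tested. Detection in both libraries held for 5 genes at 1 TPM and for 1 at 5 TPM. Each library alone gave a summed TPM of 226 and 24.2, within 1 SD of the mean by construction. The 8 to 24 counts of *Junb*, *Gadd45b*, *Gadd45g* and *Ier2* in library 1 limit their folds, and *Fosb* is too low to test.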
